A study of Mus musculus with 6 samples.

Results

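The genes described here are 36 homeobox and paired-box transcription factors known from tooth and jaw development, chosen by symbol from 48709 gene rows of a count table. They comprise the Dlx, Msx, Barx, Lhx, Pitx, Prrx, Alx, Pax, Irx, Meis and Pbx genes, with Six2, Six4, Gsc, Shox2, Isl1, Tgif1 and Hopx. Of the 36 genes, 35 appeared in the 20162 gene rows of the authors' normalised table, and 30 passed a filter on low counts that left 16011 genes to test. Bulk RNA-seq was made from the first molar tooth germ of C57BL/6 mice at postnatal day 7, with 3 libraries from Gpr115-/- mice (Gpr115-KO) and 3 from wild-type littermates (WT). Gpr115, listed as Adgrf4, is an adhesion G protein-coupled receptor, and the labels do not give which part of the gene the knockout lacks. Nor do they say whether each library came from its own animal, so the p-values measure the spread between libraries.

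Homeobox genes encode transcription factors that bind DNA through the homeodomain, a fold of helices whose last helix reads the base sequence. In the embryonic jaw, overlapping domains of Dlx, Msx, Barx1, Lhx and Pax9 expression in neural crest-derived mesenchyme set where teeth form and which type they become, in exchange with BMP, FGF and WNT signals from the epithelium. Several of these factors act again later in ameloblasts, the epithelial cells that secrete enamel matrix, and in odontoblasts, the mesenchymal cells that make dentine.

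The base sequences below show what the members share and how near the related ones are to each other, which bears on whether reads can be told apart. Each is a stretch of 60 coding bases, 5′ to 3′ on the coding strand, from GENCODE vM21 transcripts (GRCm38), for genes whose libraries did not overlap between the genotypes and for the relatives Dlx1 and Prrx1. The capitals mark an in-frame pattern of 12 bases, the codons TGG, TTN, NNN and AAN in a row (N for any base), that lies in the part of the homeobox encoding the recognition helix.
Dlx1: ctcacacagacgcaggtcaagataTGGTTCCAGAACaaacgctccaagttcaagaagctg
Dlx2: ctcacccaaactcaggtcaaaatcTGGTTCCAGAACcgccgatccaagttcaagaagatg
Msx2: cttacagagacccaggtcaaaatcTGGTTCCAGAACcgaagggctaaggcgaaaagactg
Prrx1: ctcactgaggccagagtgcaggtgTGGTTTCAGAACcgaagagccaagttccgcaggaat
Prrx2: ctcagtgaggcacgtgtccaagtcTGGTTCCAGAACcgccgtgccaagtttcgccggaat
Tgif1: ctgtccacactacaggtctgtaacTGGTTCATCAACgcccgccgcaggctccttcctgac
Six2: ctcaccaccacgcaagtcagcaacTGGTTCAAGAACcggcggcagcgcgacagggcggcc
Irx3: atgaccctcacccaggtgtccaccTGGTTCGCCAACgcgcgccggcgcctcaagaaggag
The pattern, searched in frame on the coding strand, occurred exactly once in 32 of the 36 members and did not occur in Barx1, Barx2, Hopx or Pax9. It occurred in 978 of 21584 protein-coding genes, or 4.531%. Over 180 coding bases aligned on the pattern, Dlx1 and Dlx2 differed at 47 bases, and Prrx1 and Prrx2 at 38. Irx3 and Irx5 differed at 20 bases, as did Irx1 and Irx2, and the longest identical run of Irx3 and Irx5 was 50 bases. No member matched another at 95% identity or more over 150 bases of transcript. Some members share exonic bases with overlapping genes outside the list. The largest shares were 27.2% for Hopx, 9.8% and 8.5% for Meis1 (with Gm37818 and Gm16140), and 6.2% each for Dlx1, Pbx2 (Gpsm3) and Pitx1 (Gm47071). Smaller shares, of 2.2% to 4.6%, were those of Shox2, Irx3, Dlx6, Alx1, Pax9, Dlx4 and Lhx6, and of Pitx1 with Gm28760.

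The libraries held 8317302 to 10328654 counts in Gpr115-KO and 8833612 to 11122821 in WT, so that 1 count was worth 0.0907 to 0.114 CPM (counts per library size, scaled by TMM, a trimmed mean of ratios). Adgrf4 itself had 39.2, 20.6 and 27.5 CPM in Gpr115-KO, against 67.1, 62.5 and 67.5 CPM in WT (log2 fold change -1.18, edgeR adjusted p = 0.0887), and the Gpr115-KO libraries were all lower. Markers of the labelled tissue were abundant: 12 ameloblast genes summed to 97138 to 205307 CPM in Gpr115-KO and 114267 to 147359 CPM in WT, and 10 odontoblast genes to 48494 to 81636 CPM and 43517 to 94008 CPM. Col1a1 made up the largest part of the odontoblast sums, with 35512 to 58103 CPM in Gpr115-KO and 30636 to 69001 CPM in WT. Dspp had 2913 to 8899 CPM in Gpr115-KO and 3745 to 7542 CPM in WT. No gene of the ameloblast and odontoblast lists or of the 7 other cell type lists passed the test. In bulk tissue, fewer cells of a type and less RNA per cell cannot be told apart, and this holds for every value below.

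None of the 30 measured members passed edgeR's quasi-likelihood test at an adjusted p below 0.05, where 0.15% of the 16011 genes did and are named as called below. The lowest adjusted p among the members was 0.338. At an unadjusted p below 0.05 there were 5 of 30 members, or 16.7%, against 12.3% of all genes tested. These were Barx1 and Prrx2, higher in Gpr115-KO as 4.85% of all genes were, and Dlx2, Tgif1 and Six2, lower in Gpr115-KO as 7.48% of all genes were. That count was 0 without WT replicate 1, 2 without WT replicate 2, and 3 with DESeq2, which also called no member where it called 1.69% of all genes. The genotypes' libraries did not overlap for 6 of 30 members, or 20%, against 17.5% of all genes. The 3 members Msx2, Prrx2 and Irx3 were higher in every Gpr115-KO library, against 8.55% of all genes, and the 3 members Dlx2, Tgif1 and Six2 were lower in every one, against 8.99%. Scaled by library totals alone, Tgif1 and Six2 overlapped, Dlx1 and Barx1 were higher in every Gpr115-KO library, and the count was again 6. The fold changes were split evenly, 15 above 0 and 15 below, where 48.7% of all genes were below 0. The median log2 fold change was 0.02 over the members and 0.01 over all genes, and the median absolute value was 0.31 and 0.24. The members' shares thus lay near those of all genes.

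The genes differed far more among themselves than between genotypes. Compared per kilobase of exonic length, Dlx3 alone held 34.8% of the summed level of the 30 measured members, the first 5 genes held 73.7% and the first 10 held 89.0%. The 6 Dlx genes together held 61.3% and the 2 Msx genes 20.0%. At the other end, 19 measured members averaged under 5 CPM per kilobase. The order at the top was Dlx3 (148 CPM per kilobase), Msx1 (47.2), Dlx2 (42.4), Dlx5 (38.4) and Msx2 (38.1), followed by Dlx4 (18.2) and Tgif1 (14.0). Dlx3 stood clear of all others in every library, while Msx1, Dlx2, Dlx5 and Msx2 changed places between libraries.

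**Figure D1:**
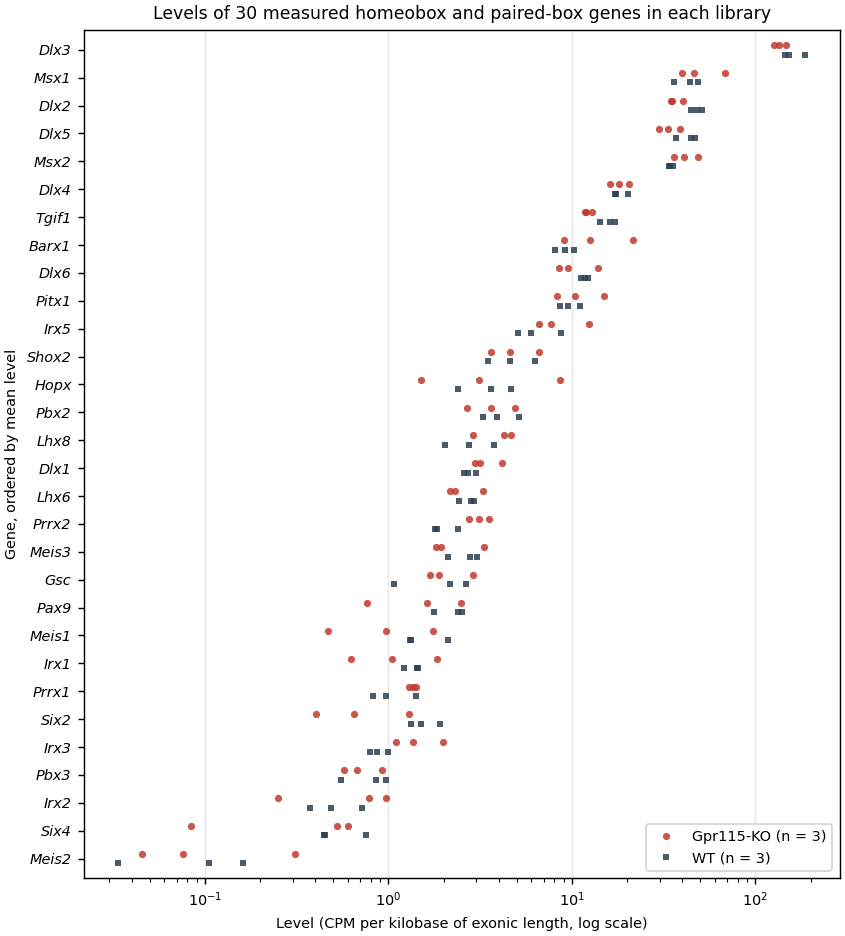
Level of each of the 30 measured genes in CPM per kilobase of exonic length (log scale), ordered by mean level, with 3 Gpr115-KO libraries (circles) above 3 WT libraries (squares) for each gene. Dlx3 lies highest at a mean of 148 CPM per kilobase, and for most genes the circles and squares intermingle.

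The Dlx genes, mouse relatives of Drosophila Distal-less, lie in 3 pairs of neighbours and pattern the pharyngeal arches; Dlx3 is also a gene of ectodermal organs, and DLX3 mutations in humans cause tricho-dento-osseous syndrome with enamel defects. Dlx3 (chr11:95120119-95125296) had 350.2, 331 and 381 CPM in Gpr115-KO libraries, against 378, 395 and 487 CPM in WT libraries. Its lowest WT library lay just under its highest Gpr115-KO library, and the difference did not pass the test (log2 fold change -0.25, adjusted p = 0.590 by edgeR, SE 0.17). Without WT replicate 3, its highest library, the value was -0.13. Dlx4, its neighbour on chromosome 11, had 52.5, 58.9 and 66.6 CPM in Gpr115-KO and 56.0, 65.7 and 57.1 CPM in WT, with a log2 fold change of -0.01 (SE 0.15).

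Dlx2, which with Dlx1 is needed for the upper molars in mice, had 99.1, 115 and 100.2 CPM in Gpr115-KO, against 146, 127 and 138 CPM in WT. All Gpr115-KO libraries lay below all WT libraries, with means of 105 ± 8.98 and 137 ± 9.82 CPM (SD, n = 3 each). The log2 fold change was -0.39 (adjusted p = 0.338 by edgeR, SE 0.15), and it lay between -0.46 and -0.33 when any 1 library was left out. Dlx1 (chr2:71528113-71533981), transcribed towards Dlx2 (chr2:71543408-71546754), had 17, 16 and 22.3 CPM in Gpr115-KO and 14.7, 13.9 and 16.3 CPM in WT, with overlap and a log2 fold change of 0.31 (adjusted p = 0.561 by edgeR, SE 0.20), which was 0.14 without Gpr115-KO replicate 3. Of the exonic bases of Dlx1, 6.2% overlap the antisense gene Dlx1as, and the Nextera kit keeps no strand, so reads in that overlap cannot be told apart between them.

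Dlx5, a regulator of lower jaw identity and of bone-forming cells, had 67.6, 76.0 and 88.2 CPM in Gpr115-KO and 100.5, 106 and 83.2 CPM in WT, and WT replicate 3 fell within the Gpr115-KO values (log2 fold change -0.32, adjusted p = 0.455 by edgeR, SE 0.17). Dlx6, its neighbour and partner in jaw patterning, had 20.3, 22.6 and 32.7 CPM in Gpr115-KO and 26.7, 29.1 and 27.8 CPM in WT (log2 fold change -0.14, SE 0.20). Gpr115-KO replicate 3 was the highest of all, and the fold change was -0.38 without it and -0.01 without Gpr115-KO replicate 1. The fold changes of the family were below 0 for 5 of 6 genes, none past the test, with a median of -0.20, and that of Dlx4 turned above 0 when some single libraries were left out. Summed per kilobase, the 6 genes came to 227, 231 and 258 CPM per kilobase in Gpr115-KO, against 272, 278 and 304 in WT. These sums did not overlap, and Dlx3 made up the largest part of each of them. Scaled by library totals alone they did overlap, with 239, 223 and 274 CPM per kilobase in Gpr115-KO and 269.6, 277 and 281 in WT, and the log2 fold change of Dlx4 was then 0.07.

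The Msx genes encode homeodomain repressors that act with BMP signalling in tooth mesenchyme and epithelium. Msx2, whose loss in mice disturbs enamel formation, had 117, 159 and 134 CPM in Gpr115-KO, against 110.2, 112 and 116 CPM in WT. The Gpr115-KO libraries were all higher, the lowest of them only just above the highest WT library, and were spread more widely (SD 21.2 CPM, against 3.10 CPM in WT, n = 3 each). The log2 fold change of 0.28 (SE 0.16) did not pass the test (edgeR adjusted p = 0.509) and was 0.16 without Gpr115-KO replicate 2, the highest library. In that library the summed markers of ameloblasts (205307 CPM) and skeletal muscle (208 CPM, against 20.9 to 58.1 CPM in the 5 other libraries) were also highest, and their part in the Msx2 values was not tested. Ambn alone held 140561 CPM of that ameloblast sum. Amelx, Ambn, Enam, Mmp20, Sp6, Krt14 and Krt5 were highest there, Odam (1473 CPM) and Epcam (11.9 CPM) lowest, and Amtn, Klk4 and Cdh1 in between. Msx1, without which molar development in mice stops early and whose human mutations cause missing teeth, had 124, 144 and 211 CPM in Gpr115-KO and 112, 151 and 136 CPM in WT. Its values overlapped, and the log2 fold change of 0.26 (SE 0.21) was 0.01 without Gpr115-KO replicate 3 and 0.41 without Gpr115-KO replicate 1.

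Among the genes that mark the molar field and the dental mesenchyme, Barx1, which marks molar as opposed to incisor mesenchyme, had the largest fold change. It had 12.6, 17.5 and 30.2 CPM in Gpr115-KO, against 11.2, 12.8 and 14.4 CPM in WT. The genotypes overlapped, and Gpr115-KO replicate 3 set most of the difference: the log2 fold change was 0.65 (adjusted p = 0.404 by edgeR, SE 0.29) with it and 0.24 without it. Pitx1, a paired-like factor of the lower jaw and hindlimb, had 22.0, 39.5 and 27.7 CPM in Gpr115-KO and 25.3, 22.8 and 29.5 CPM in WT. Its log2 fold change of 0.20 (SE 0.22) was -0.06 without Gpr115-KO replicate 2, its highest library, and 0.38 without Gpr115-KO replicate 1. Lhx8 and Lhx6, LIM-homeobox genes that are jointly required for molars in mice, ranged from 7.27 to 11.8 CPM and from 10.4 to 15.8 CPM in Gpr115-KO. In WT they ranged from 5.17 to 9.55 CPM and from 11.7 to 14.1 CPM, and their log2 fold changes were 0.47 and -0.08, the second of which was 0.01 with library totals alone. The value of Lhx8 was 0.27 without WT replicate 1 and 0.72 without WT replicate 3. Pax9, needed in mesenchyme for tooth development beyond the bud, ranged from 3.85 to 12.6 CPM in Gpr115-KO and 8.98 to 12.8 CPM in WT. Its log2 fold change of -0.45 (SE 0.36) was -0.11 without Gpr115-KO replicate 2, its lowest library, and -0.91 without Gpr115-KO replicate 3.

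The paired-related genes Prrx1 and Prrx2, which act redundantly in craniofacial mesenchyme and whose joint loss in mice disturbs the lower jaw and incisors, both had fold changes above 0. Prrx2 had 5.36, 6.09 and 6.95 CPM in Gpr115-KO, against 3.63, 3.52 and 4.68 CPM in WT. The Gpr115-KO libraries were all higher, with means of 6.13 ± 0.799 and 3.94 ± 0.637 CPM (SD, n = 3 each), but the log2 fold change of 0.64 (SE 0.27) did not pass the test (edgeR adjusted p = 0.370). Prrx1 ranged from 14.3 to 15.6 CPM in Gpr115-KO and from 9.07 to 15.7 CPM in WT, with overlap. Its log2 fold change of 0.34 (SE 0.23) was 0.18 without WT replicate 1 and 0.60 without WT replicate 2. Summed per kilobase, the pair had 4.14, 4.46 and 4.83 CPM per kilobase in Gpr115-KO, against 2.67, 3.21 and 3.35 in WT, without overlap. Sums taken in the same way for the Msx, Lhx, Alx, Irx, Meis, Pbx and Barx genes overlapped between the genotypes. Shox2, a short-stature homeobox gene of the palate and limb, had 22.0, 12 and 15.3 CPM in Gpr115-KO and 20.8, 11.5 and 15.1 CPM in WT, so that its variation lay within the genotypes (log2 fold change 0.05, SE 0.28, and -0.22 to 0.30 when 1 library was left out). Its highest library in each genotype, replicate 1, was also the one with the highest summed markers of keratinizing oral epithelium (357 CPM in Gpr115-KO and 175 CPM in WT), whose part in these values was not tested. Gsc, goosecoid, of the lower jaw and middle ear, stayed between 2.14 and 3.66 CPM in Gpr115-KO and between 1.36 and 3.35 CPM in WT.

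The Iroquois genes encode homeodomain factors of the TALE class, which have a 3-residue loop extension, and they lie in 2 clusters, on chromosomes 8 and 13. Irx3 (chr8:91798525-91802067) had 5.47, 3.74 and 3.02 CPM in Gpr115-KO, against 2.18, 2.39 and 2.74 CPM in WT. Every Gpr115-KO library was higher, and the log2 fold change of 0.74 (adjusted p = 0.418 by edgeR, SE 0.34) was 0.47 without Gpr115-KO replicate 1. Reads from Irx3 and the antisense gene Irx3os cannot be told apart over 4.5% of its exonic bases. Irx5, on the same chromosome, was the most abundant of the family, with 24.2, 20.6 and 38.5 CPM in Gpr115-KO and 15.9, 18.6 and 27.1 CPM in WT, which overlapped (log2 fold change 0.44, adjusted p = 0.544 by edgeR, SE 0.27). That value was 0.12 without Gpr115-KO replicate 3 and 0.69 without WT replicate 3. Irx1 and Irx2 were low, with ranges of 1.65 to 4.81 CPM and 0.823 to 3.19 CPM in Gpr115-KO, and of 3.18 to 3.81 CPM and 1.22 to 2.36 CPM in WT. Their log2 fold changes were -0.23 and 0.32, with ranges of -0.72 to 0.08 and -0.05 to 0.73 when 1 library was left out.

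**Figure D2:**
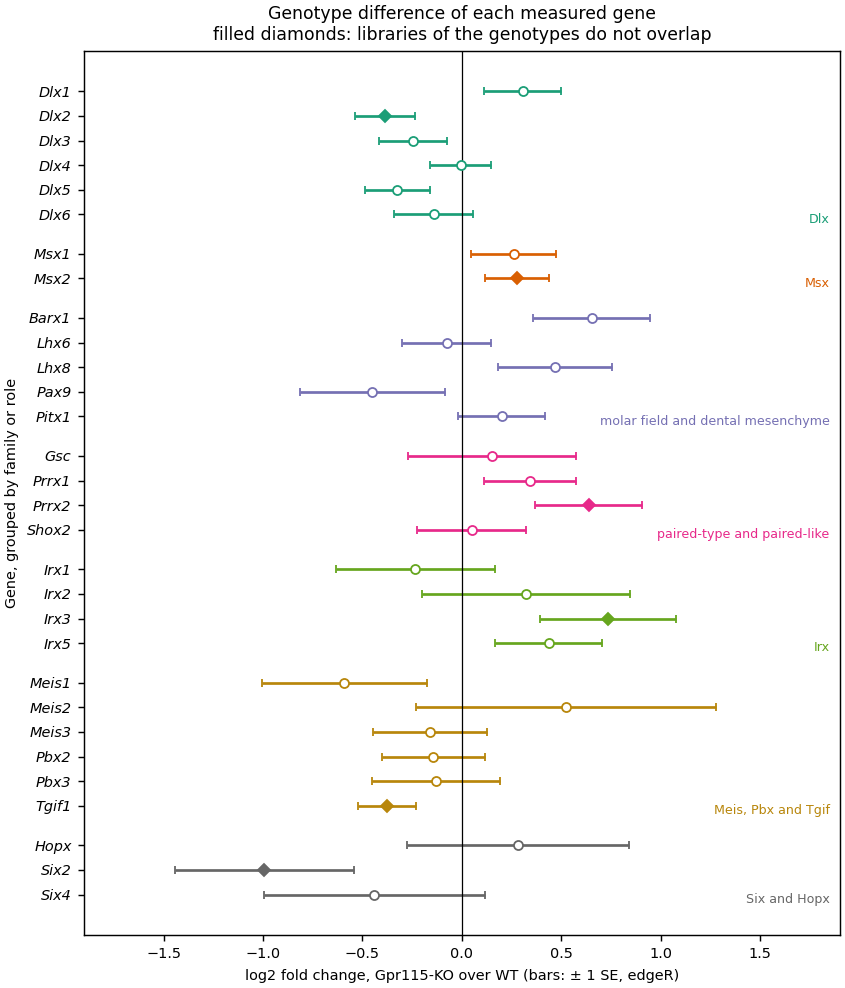
log2 fold change of each measured gene, Gpr115-KO over WT, with bars of ± 1 SE from edgeR, grouped by family or role. Filled diamonds mark the 6 genes whose libraries did not overlap between genotypes, 3 on each side of 0.

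The other TALE genes encode the cofactors Meis and Pbx, which bind DNA together with homeodomain partners, and Tgif1, a repressor in TGF-beta signalling whose human mutations cause holoprosencephaly. Tgif1 (chr17:70844205-70853546) had 71.9, 66.4 and 67.3 CPM in Gpr115-KO, against 90.4, 96.5 and 79.7 CPM in WT. Every Gpr115-KO library was lower on the TMM scale, with means of 68.5 ± 2.96 and 88.9 ± 8.51 CPM (SD, n = 3 each) and a log2 fold change of -0.37 (adjusted p = 0.338 by edgeR, SE 0.15). Pbx2 (chr17:34591266-34597400) had 9.80, 17.7 and 13.2 CPM in Gpr115-KO and 18.8, 11.9 and 14.2 CPM in WT, with no common direction (log2 fold change -0.14, SE 0.26, and -0.38 to 0.05 when 1 library was left out). Meis1 ranged from 4.94 to 18.3 CPM in Gpr115-KO and from 13.8 to 22.1 CPM in WT. Its log2 fold change of -0.59 (SE 0.42) was -1.15 without Gpr115-KO replicate 1 and -0.23 without Gpr115-KO replicate 3. Meis3 ranged from 5.77 to 10.5 CPM in Gpr115-KO and 6.71 to 9.61 CPM in WT, Pbx3 from 3.48 to 5.66 CPM and 3.35 to 5.89 CPM, and Meis2 from 0.549 to 3.74 CPM and 0.407 to 1.93 CPM. Of these 6 genes, 5 had fold changes below 0, among which Pbx2 and Pbx3 turned above 0 when some single libraries were left out.

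Six2, a sine oculis-related gene known from kidney progenitors and cranial base growth, had the largest fold change of the measured members. It had 1.37, 0.855 and 2.74 CPM in Gpr115-KO, against 2.81, 3.18 and 4.07 CPM in WT. On the TMM scale the highest Gpr115-KO library lay just below the lowest WT library, and the log2 fold change of -0.99 (adjusted p = 0.403 by edgeR, SE 0.45) ranged from -1.59 without Gpr115-KO replicate 3 to -0.68 without Gpr115-KO replicate 2. Six4, expressed in muscle precursors, ranged from 0.912 to 6.52 CPM in Gpr115-KO and from 4.81 to 8.23 CPM in WT. Its low value was in Gpr115-KO replicate 1, which also had the lowest summed skeletal muscle markers (20.9 CPM), and their part in it was not tested. Its log2 fold change of -0.44 was 0.03 without that library and -0.82 without Gpr115-KO replicate 2. The highest Six4 value was in WT replicate 3 (8.23 CPM), where the muscle markers summed to 33.0 CPM, against 208 CPM in Gpr115-KO replicate 2 (Six4 at 6.52 CPM). Hopx, a small homeodomain-only protein that does not bind DNA, ranged from 2.29 to 13.0 CPM in Gpr115-KO and from 3.64 to 7.07 CPM in WT. It shares 27.2% of its exonic bases with the antisense gene Hopxos, and its log2 fold change of 0.28 was -0.64 without Gpr115-KO replicate 1 and 0.70 without Gpr115-KO replicate 3.

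Tgif1, Pbx2 and Six2 lie on chromosome 17, the chromosome of Adgrf4, where 2.49% of 724 tested genes were called and 24.0% had libraries that did not overlap. The 18 called genes there started between 24.4 and 67.7 Mb. Pbx2 lay within that stretch, 0.353 Mb from the called gene 1110038B12Rik (log2 fold change -1.93). Tgif1 and Six2 lay beyond its end, 3.02 Mb and 17.9 Mb from Lama1 (log2 fold change -1.73). Whether sequence around the targeted gene differed between the genotypes was not tested.

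The 6 members under the count filter were low, with at most 17 counts in any library. Lhx9, of the limb and gonad, had no count in any library. Barx2 had 2, 1 and 3 counts in Gpr115-KO and 7, 2 and 0 in WT, and Pax3, of neural crest and muscle precursors, had 5, 7 and 0 in Gpr115-KO and 2, 0 and 0 in WT. Isl1, an epithelial gene of the incisor field, had 6, 0 and 2 counts in Gpr115-KO and 4, 8 and 1 in WT. The frontonasal genes Alx1 and Alx4 had 1, 7 and 12 counts and 8, 0 and 13 counts in Gpr115-KO, and 5, 1 and 0 counts and 17, 4 and 0 counts in WT. At this depth, a count of 0 allowed a level of up to 0.272 to 0.342 CPM, depending on the library.

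Ratios of related genes within a library do not depend on the scaling between libraries. Over 10 pairs, the ratio of Dlx1 to Dlx2 per kilobase was the only one whose libraries did not overlap. It was 0.0906, 0.0736 and 0.118 in Gpr115-KO, against 0.0531, 0.0578 and 0.0625 in WT, a log2 difference of 0.68. The 2-sided exact permutation test gave p = 0.1, the smallest that 3 against 3 libraries allow, and 0.667 after Benjamini-Hochberg adjustment over the 10 pairs. Dlx6 to Dlx5 had ratios of 0.286, 0.283 and 0.354 in Gpr115-KO and 0.253, 0.260 and 0.319 in WT (exact permutation p = 0.4). Msx2 to Msx1 had ratios of 0.898, 1.05 and 0.598 in Gpr115-KO and 0.931, 0.700 and 0.806 in WT, with a log2 difference of 0.03. Lhx8 to Lhx6 had ratios of 1.98, 1.25 and 1.42 in Gpr115-KO and 0.839, 0.973 and 1.28 in WT (exact permutation p = 0.2). The last of these overlapped by 1 library.

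**Figure D3:**
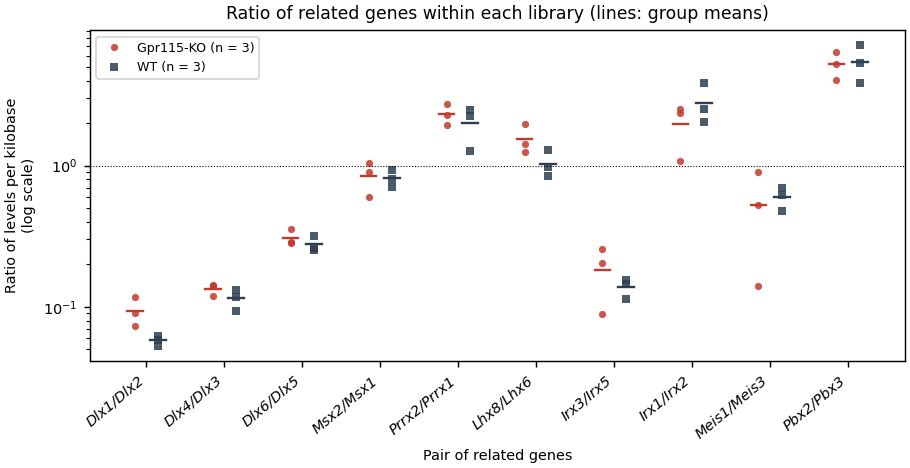
Ratio of levels per kilobase for 10 pairs of related genes (log scale), with 3 Gpr115-KO libraries to the left of 3 WT libraries in each pair and lines at the group means. Dlx1 to Dlx2 is the pair without overlap, at 0.0736 to 0.118 in Gpr115-KO and 0.0531 to 0.0625 in WT.

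The members varied more among Gpr115-KO libraries than among WT libraries. The median coefficient of variation was 29.6% in Gpr115-KO and 17.1% in WT over the members, against 21.0% and 16.2% over all genes tested. It was larger in Gpr115-KO for 76.7% of the members and for 62.5% of all genes. Gpr115-KO replicate 3 held the highest value of 11 of the 30 members, Barx1, Msx1, Irx5 and Dlx1 among them, where it held the highest value of 16.4% of all genes. That library also had the highest summed markers of pulp and follicle (4398 CPM) and the lowest of ameloblasts (97138 CPM). In the other libraries these sums ran from 2488 to 3787 CPM and from 114267 to 205307 CPM. Of the pulp and follicle genes, only Vim, Col3a1, Dcn and Lum were highest in Gpr115-KO replicate 3. Ambn alone held 53962 CPM of its ameloblast sum. Ambn, Enam, Amtn, Klk4, Krt14, Krt5 and Cdh1 were lowest there, Epcam (17.9 CPM) highest, and Amelx, Mmp20, Sp6 and Odam in between. The part of these cell types in the members' values was not tested.

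**Figure D4:**
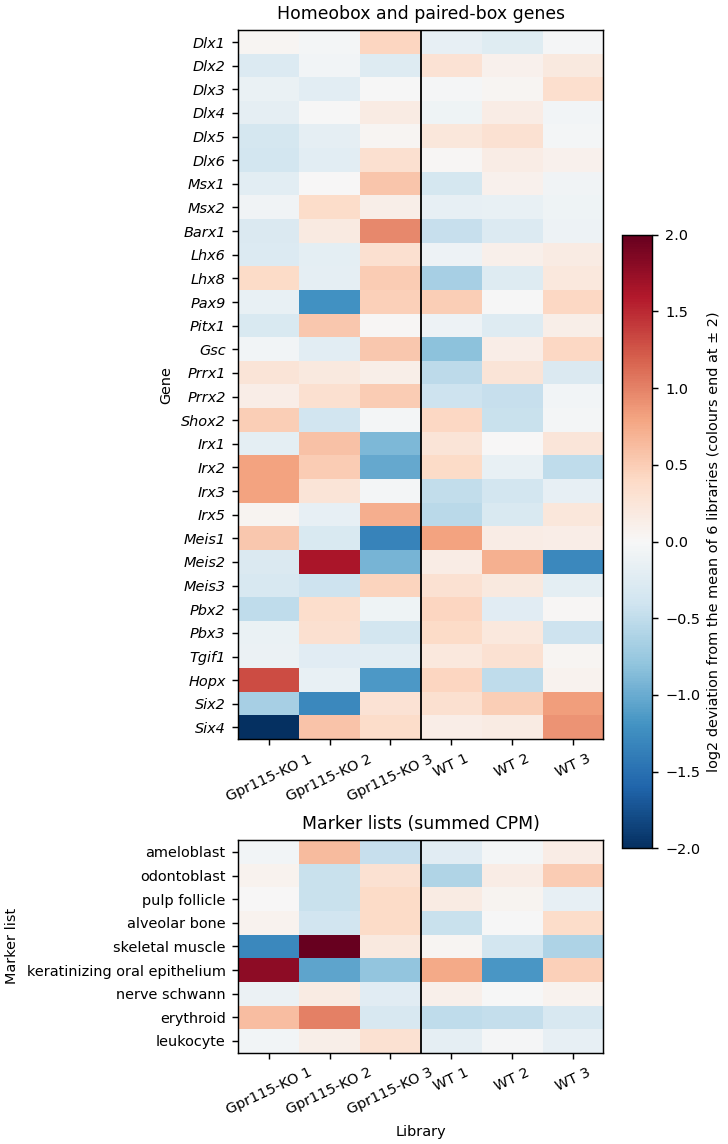
log2 deviation of each measured gene (upper panel) and of 9 summed cell type marker lists (lower panel) from the mean of the 6 libraries, with 3 Gpr115-KO libraries left of 3 WT libraries. Gpr115-KO replicate 3 is the library with the most highest values, 11 of 30 genes, and the skeletal muscle sum is highest in Gpr115-KO replicate 2.

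The remaining cell type lists also varied between libraries, and the library with the highest sum was not the same for each list. All 7 measured of 13 skeletal muscle genes and all 6 measured of 7 erythroid genes had fold changes above 0, none past the test. The muscle sums were 20.9, 208 and 58.1 CPM in Gpr115-KO, against 52.4, 39.4 and 33.0 CPM in WT. Among the regulators of muscle precursors, Myf5 had 4, 46 and 13 counts in Gpr115-KO and 24, 13 and 17 in WT, and Myog had 1, 18 and 2 in Gpr115-KO and 9, 7 and 4 in WT. Myod1 had 0, 6 and 17 counts in Gpr115-KO and none in WT, and Pax7 had at most 1 count in any library. The erythroid sums were 305, 396 and 159 CPM in Gpr115-KO and 139, 142 and 158 CPM in WT. All 6 measured erythroid genes had an unadjusted p below 0.05, against 12.3% of all genes, with a median log2 fold change of 1.34. For 4 of them (66.7%, against 17.5% of all genes) the libraries did not overlap between the genotypes. Of 9 measured leukocyte genes, 4 had an unadjusted p below 0.05 (44.4%, against 12.3% of all genes), and 3 did not overlap (33.3%, against 17.5%). The 4 were Lyz2, S100a8, S100a9 and Mpo, all higher in Gpr115-KO. Ptprc, Csf1r and Cd14 had log2 fold changes of -0.23, -0.13 and -0.17, and Cd68 and Adgre1 of 0.10 each. The part of muscle, erythroid and leukocyte cells in the members' values was not tested. The keratinizing oral epithelium sums were 357, 50.1 and 59.7 CPM in Gpr115-KO and 175, 46.0 and 144 CPM in WT. Nerve and Schwann cell sums ranged from 155 to 204 CPM in Gpr115-KO and from 180 to 195 CPM in WT, and leukocyte sums from 102 to 131 CPM and from 93.9 to 105 CPM. Alveolar bone sums ranged from 1808 to 3078 CPM in Gpr115-KO and from 1727 to 3036 CPM in WT. Bglap, which made up the largest part of each bone sum, and Phex and Ifitm5 were also in the odontoblast list.

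Beyond the members, 37 of 170 other homeobox and paired-box genes were measured and none was called by edgeR. Of the 37, 5 had an unadjusted p below 0.05 (13.5%, against 12.3% of all genes). DESeq2 called Hhex and Zfhx3 among them. Zfhx3, a large zinc finger homeobox factor, had 386, 373 and 390.4 CPM in Gpr115-KO, against 696, 517 and 544 CPM in WT, and all Gpr115-KO libraries were lower (log2 fold change -0.61, adjusted p = 0.251 by edgeR, SE 0.18). Hhex, of endoderm and blood vessel precursors, had 3.53, 0.641 and 0.823 CPM in Gpr115-KO, against 10.6, 5.68 and 6.20 CPM in WT, again without overlap (log2 fold change -2.20, adjusted p = 0.225 by edgeR, SE 0.57). Without Gpr115-KO replicate 1 the adjusted p of Hhex was 0.0200. Homez and Zhx1 followed by p, with log2 fold changes of -0.63 and 0.40. Among those with high levels per kilobase were Zfhx3 (23.1 CPM per kilobase), Zhx3 (12.4), Satb1 (11.9) and Zhx2 (8.64). Of 39 Hox genes, which are absent from the first arch in the embryo, 2 passed the filter, Hoxc4 and Hoxd8, and 19 had no count.

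Signals and target genes tied to these factors were also measured. Of 20 listed signals, 15 were measured, 5 with fold changes above 0 and 10 below, and edgeR called none. Fst, follistatin, an antagonist of activins and BMPs, had 17.7, 15.3 and 20.4 CPM in Gpr115-KO, against 43.8, 30.9 and 30.7 CPM in WT. All Gpr115-KO libraries were lower, and the log2 fold change was -0.98 (adjusted p = 0.103 by edgeR, SE 0.20), while DESeq2 gave an adjusted p of 0.00609. Wnt10a, whose human mutations cause missing teeth, had 27.5, 30.1 and 30.1 CPM in Gpr115-KO, against 15.7, 22.7 and 23.4 CPM in WT, all higher in Gpr115-KO (log2 fold change 0.51, adjusted p = 0.311 by edgeR, SE 0.19). Wnt10b had a log2 fold change of -1.19 (SE 0.61) with overlap. Of 21 listed genes tied to the members, 3 of which are also among the signals, 17 were measured, 7 with fold changes above 0 and 10 below, and none was called by edgeR or DESeq2. Runx2, a regulator of bone and tooth mineralisation, had 168, 151 and 175 CPM in Gpr115-KO, against 185, 306 and 217 CPM in WT (log2 fold change -0.52, adjusted p = 0.333 by edgeR, SE 0.20). Runx2 (chr17:44495987-44814797) lies on the chromosome of Adgrf4, within the stretch that holds the called genes there. Whether sequence around the targeted gene bears on its values was not tested. Amelx, which encodes the enamel matrix protein amelogenin, had 22779, 46000.3 and 28655 CPM in Gpr115-KO and 21248, 20767 and 25836 CPM in WT (log2 fold change 0.52, adjusted p = 0.510 by edgeR, SE 0.30). Lama3, a laminin chain of the ameloblast basement membrane, had a log2 fold change of -0.34 (SE 0.21).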

How the data were processed

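Total RNA was extracted with TRIzol, and Nextera XT libraries were read as pairs of 150 bases by a HiSeq1500, per the labels' protocols. The authors deposited a table of raw read counts per gene and a normalised signal per gene on the TMM-scaled CPM scale. The submitters' processing notes name STAR 2.5.2a, GRCm38 (mm10), DESeq2, edgeR and limma; the counting tool, the annotation and the role of each tool were not given in the sources used here. Tests used the counts. Of the deposited normalised values, 100% came back as whole reads (tolerance 0.01) and equalled the counts, and the test on those reads called 24 genes, as many as on the counts.

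The 15 transgene rows, which held at most 8 counts per library in all, were left out. Genes were kept by filterByExpr (minimum count 10, minimum total count 15), scaled by TMM and tested with edgeR 4.0.16 (R 4.3.3) by a robust quasi-likelihood F test of Gpr115-KO over WT. The biological coefficient of variation was 23.1%. Calls used a Benjamini-Hochberg adjusted p below 0.05 over all 16011 genes, and the SE was taken as the size of the log2 fold change over the root of F. The fit was tested on simulated data. Alternatives used DESeq2 1.42.0, limma 3.58.1 (pseudocount 1 for limma-trend) and edgeR with other scalings, filters and libraries left out. Symbols came from the deposited normalised table or, for genes not in it, from GENCODE vM21, which also gave coordinates and exonic lengths, and near-identical transcripts were sought with blastn 2.17.0. The plot of deviations used log2 of CPM plus 0.1. A count of 0 was read as allowing up to 3 counts, which covers counting error only.

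The members and all gene lists were chosen with earlier results of these data known. Per-library values are given for members with an unadjusted p below 0.05, libraries that did not overlap, a place among the 12 highest levels per kilobase, or a place on chromosome 17; Dlx1 was added for its ratio to Dlx2, after its values were seen, and other measured members are given by ranges. Some other homeobox genes of high level and the stretches of some members are not reported here.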

Additional observations from a re-analysis of the deposited data

How the results depend on the processing

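No member was called in any of 17 alternatives, and 18 of the 30 measured members kept the direction of their fold change in every alternative that tested them. Among the 17, the fit on reads recovered from the deposited normalised values used the same counts, so it was no separate check. Six2, one of the 18, and Six4, Meis2 and Irx2 were tested in 16 alternatives, since they did not have 10 counts in every library. The 12 that changed direction in at least 1 were Dlx4, Pitx1, Lhx6, Six4, Meis2, Pbx2, Pbx3, Irx1, Irx2, Hopx, Shox2 and Gsc. The median log2 fold change of the members lay between -0.05 (limma-voom) and 0.11 (library totals alone). Counts of other genes moved more: 24 genes were called in all, against 500 with no count filter, 249 with DESeq2, and 14 (without WT replicate 1) to 48 (without Gpr115-KO replicate 1) when a library was left out. Of the other homeobox and paired-box genes, 1 was called with no count filter, 2 with DESeq2, and 0 to 1 with a library left out (Hhex without Gpr115-KO replicate 1). Of the signals and tied genes, 1 was called with no count filter and 1 with DESeq2, Fst in each case. The causes were not tested. The median SE of a member's fold change was 0.27 on the log2 scale, with 3 libraries a genotype.

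Libraries of the genotypes share replicate numbers, but the labels do not say what a number marks, so the numbers were not taken to pair them. Deviations of same-numbered libraries had correlations of 0.27, 0.03 and -0.07 for replicates 1, 2 and 3. Those of differently numbered libraries ran from -0.19 to 0.15, so the value of replicate 1 was the highest of all. With a replicate block 72 genes were called, among them 0 members, 1 other homeobox gene (Hhex) and 0 signals or tied genes, and the members' median log2 fold change was 0.02.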
